A study of Mus musculus with 7 samples.

Results

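The clustered Hox genes are the homeobox genes that lie in 4 chromosomal clusters, 11 of them in HoxA, 10 in HoxB, 9 in HoxC and 9 in HoxD on these arrays. They were taken by symbol alone, as Hox, then a, b, c or d, then a number, from all non-control probes, which gave 43 probes of 55681 and 39 genes of 36373. RNA came from limbs of mouse embryos of the C57/Bl6 background, aged 11.5 embryonic days. The microdissected apical ectodermal ridge (AER) of the forelimb, the thickened epithelium along the rim of the limb bud, was hybridised on 3 arrays. Surface ectoderm of the posterior limb, the flat epithelium that covers the bud, was hybridised on 4 arrays as the control. Each array carried RNA from a pool of 2 to 3 mice, labelled from 75 ng, and all 7 arrays lay on 1 slide. The labels name no mutation or treatment in either group. The labels do not say whether the posterior limb is the posterior side of the forelimb or the hindlimb, nor that the pools came from different litters, so p values measure the spread between these arrays.

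Hox genes encode transcription factors that bind DNA through a homeodomain, often together with cofactors of the PBX and MEIS families. Within a cluster the genes run from paralog group 1 at the 3′ end to group 13 at the 5′ end, and this order follows the order in which they are switched on and how far towards the tail they are expressed. In limb mesenchyme, genes of groups 9 to 13 of the HoxA and HoxD clusters are used a further time, with group 11 needed for the forearm and group 13 for the hand. Their expression in limb ectoderm has been studied less.

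The labelled tissues were checked against marker genes. Of 14 AER markers, 12 were tested, 11 were higher and 0 lower in AER (median log2 difference 3.61). Fgf8, the growth factor of the ridge, read 4949, 7329 and 8092 on AER arrays, against 17.2, 31.9, 397 and 32.2 on ectoderm arrays, in scaled signal, where 100 is the array's 75th percentile. Ectoderm replicate 3 thus stood above the other ectoderm arrays for Fgf8, and its mean over the AER markers was 0.06, against 2.72 to 3.23 on the AER arrays and -1.60, -1.20 and -1.22 on ectoderm replicates 1, 2 and 4 (log2 scale, with 0 at the 75th percentile). Pan-epithelial markers were higher in AER for 14 of 16 genes. Of 10 epidermal markers 7 were tested, and 3 were higher and 1 lower. The one that fell was the basal keratin gene Krt15, which read 4.45, 18.3 and 9.34 in AER, against 296, 936, 141 and 983 in ectoderm (log2 difference -5.60; adjusted p = 0.00118, limma), while Krt17 and Trp63 did not pass. Markers of other cell types also differed between the groups. Of 18 limb mesenchyme markers 12 were lower in AER, 1 was higher and 5 did not pass, with a summed scaled signal of 19510 to 22350 in AER, against 40680 to 62330 in ectoderm. All 7 tested muscle progenitor markers of 8 were lower in AER, with sums of 32.8 to 299 in AER, against 4350 to 11520 in ectoderm. None of the 6 erythroid, 8 endothelial and 7 macrophage markers passed the test in either direction. Neural and neural crest markers had 2 members higher and 1 lower of 7 tested. The mesenchyme, muscle and epithelial values move with the group in every Hox comparison that follows, and their part in the Hox results was not tested. In bulk RNA, fewer cells of a type and less RNA per cell cannot be told apart.

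Ectoderm replicates 2 and 4 stood apart for the Hox genes. They were the closest pair of arrays over the 33 tested Hox genes, with r = 0.99 across genes, against 0.69 to 0.78 between either of them and ectoderm replicates 1 or 3 and 0.96 between replicates 1 and 3. Over all genes the same pair correlated at 0.995, and the other ectoderm pairs at 0.985 to 0.990. Both carry the number 4 in their file names, but so does AER replicate 1, and the numbers 2 and 3 are likewise each shared by an AER and an ectoderm array. AER replicate 1 correlated with ectoderm replicates 2 and 4 at 0.64 and 0.63 over the Hox genes. The files do not tell whether replicates 2 and 4 are separate pools or 1 RNA on 2 arrays. They were counted as separate arrays. For a part of the results that rest on them, values without both are given as well, a setting chosen after the data had been seen. The arrays also differed in Y-linked transcripts: Eif2s3y read 134, 132 and 0.971 on AER arrays, against 117, 165, 1.42 and 116 on ectoderm arrays, and Ddx3y was at 1.09 on AER replicate 3 and 1.63 on ectoderm replicate 3, and over 100 on the others. The labels give no sex for the pools, and the part of this in the Hox values was not tested.

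Of the 43 Hox probes, 28 were well above background on all 7 arrays and 5 on none. Probes with signal well above background on 3 or more of the 7 arrays were tested, and 35 probes of 33 genes met this. The 6 genes that did not pass were Hoxb1, Hoxb8, Hoxb13, Hoxc12, Hoxd1 and Hoxd3. All 11 HoxA genes were tested, with 7 of 10 HoxB, 8 of 9 HoxC and 7 of 9 HoxD genes. The plot of the genes by array shows most HoxA genes and Hoxd8 to Hoxd13 above background on every array, and the 3′ end of HoxD close to background.

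**Figure D1:**
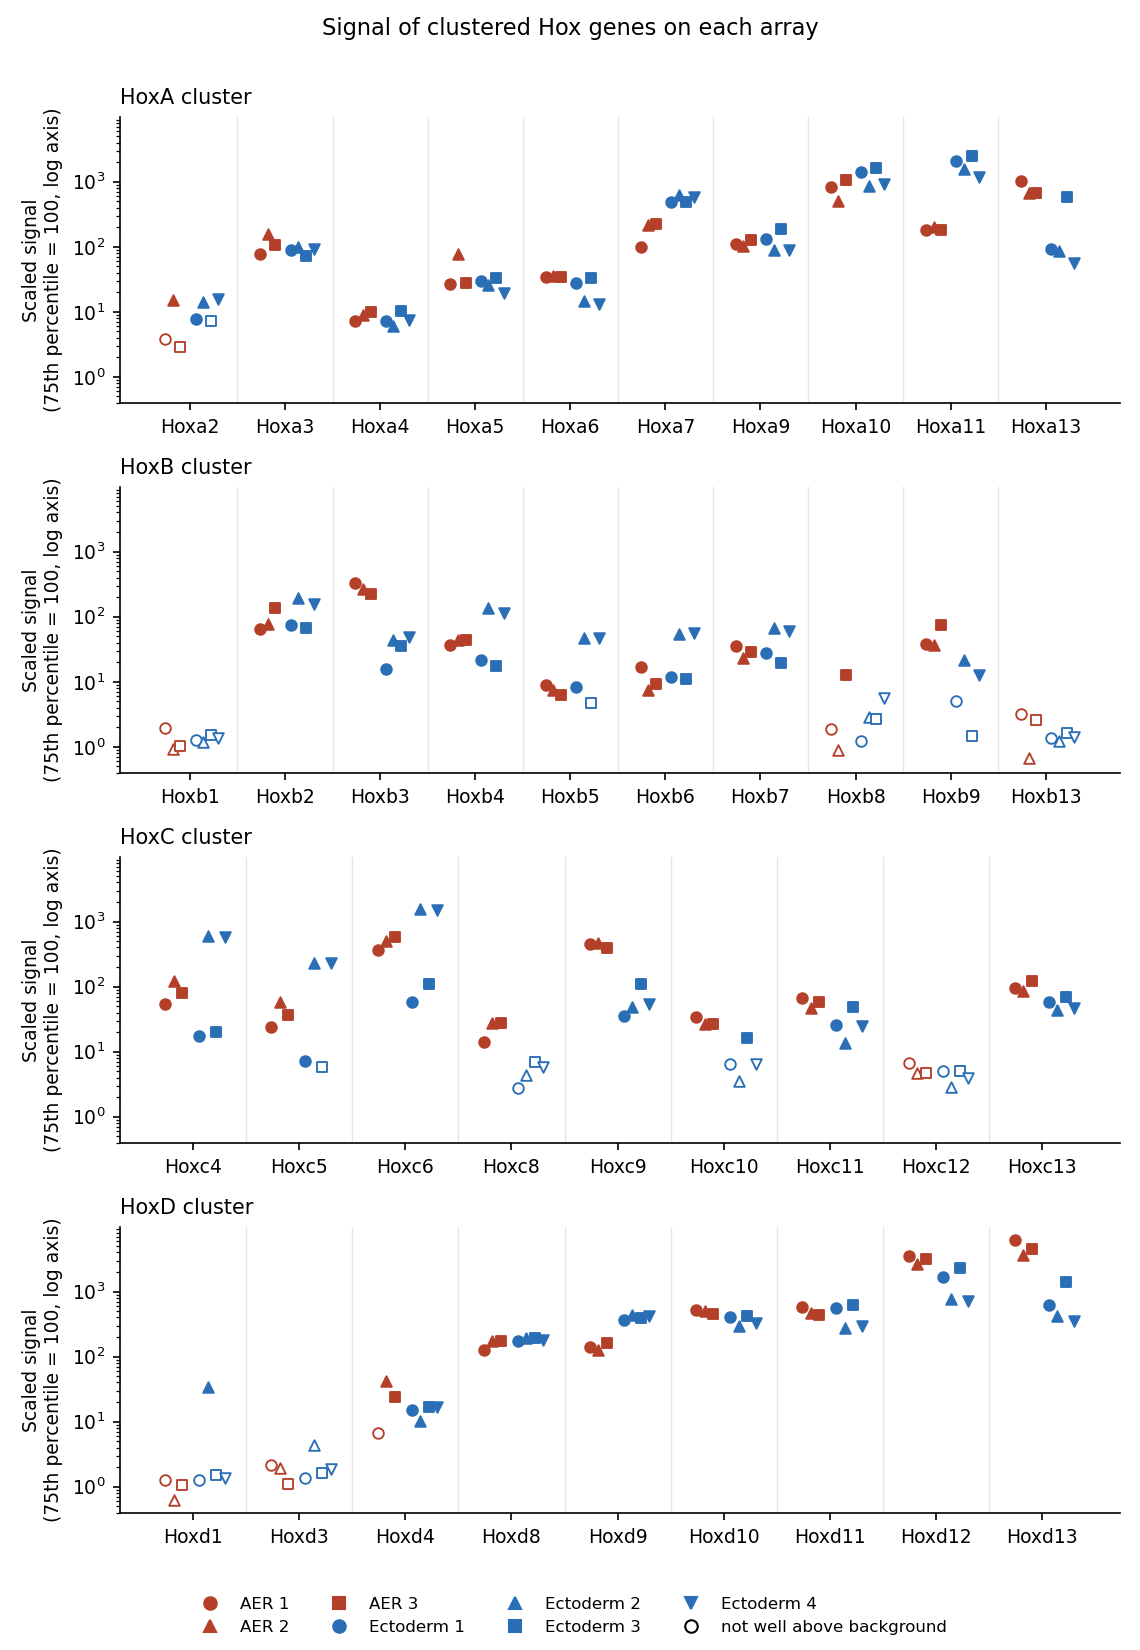
Each panel is a cluster, with 38 genes in the order of their paralog groups along the axis and the scaled signal (75th percentile of the array = 100) on a log axis, 1 point per array, open where the probe was not well above background. The 3 AER arrays of Hoxa11 sit between 179 and 200, below all 4 ectoderm arrays, and those of Hoxd13 between 3598 and 6289, above them.

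Of the 33 tested Hox genes, 8 rose in AER (24.2%), 3 fell (9.09%) and the other 22 stayed short of the threshold (limma's moderated test, Benjamini-Hochberg over all genes at 0.05). Among all 20823 genes tested, 7.08% were higher and 8.45% lower, so 15.5% passed in either direction. The Hox share was thus above the background among genes that rose and near it among genes that fell. At the level of probes 14.8% of 28276 passed. The lowest AER array was above the highest ectoderm array for 11 Hox genes (33.3%), against 12.6% of all genes, and the highest AER array was below the lowest ectoderm array for 3 (9.09%), against 17.3%. With the slide row as a block the counts of Hox genes were 8 higher and 3 lower, but Hoxb9 lost its call (adjusted p = 0.121) and Hoxd12 gained one (0.0365). Within rows 1 and 2 the counts were 3 and 2 higher, with 3 lower in each. Hoxa13, Hoxb9, Hoxc8, Hoxc10 and Hoxc13 did not pass within either row, nor did Hoxb3 within row 2. Hoxa13, Hoxb9, Hoxc8 and Hoxc10 also lost their calls when arrays were centred on pan-epithelial markers. The median log2 difference was 0.26 over the tested Hox genes and -0.08 over all genes. These shares cover the tested genes, and a gene could meet the filter of 3 arrays only with its AER arrays. Of the 8 genes that rose, this was so for Hoxc8, Hoxc10 and Hoxb9. They had 0, 1 and 2 of 4 ectoderm arrays above background, and the share of 24.2% includes them.

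By paralog group, 6 of 14 tested genes of groups 9 to 13 rose and 2 fell, with a median log2 difference of 1.03. Groups 5 to 8 had 1 gene higher and 1 lower of 10, with a median of -0.14. Groups 1 to 4 had 1 higher and 0 lower of 9, with a median of -0.24. By cluster, 4 of 8 HoxC genes rose and 0 fell, 2 of 7 HoxB genes rose and 0 fell, HoxA had 1 higher and 2 lower of 11, and HoxD had 1 higher and 1 lower of 7. Over all genes tested, 7.08% were higher and 8.45% lower. A count of 0 or 1 gene in a set of 7 to 11 does not stand apart from these shares. No test of a difference between clusters or paralog groups was made.

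**Figure D2:**
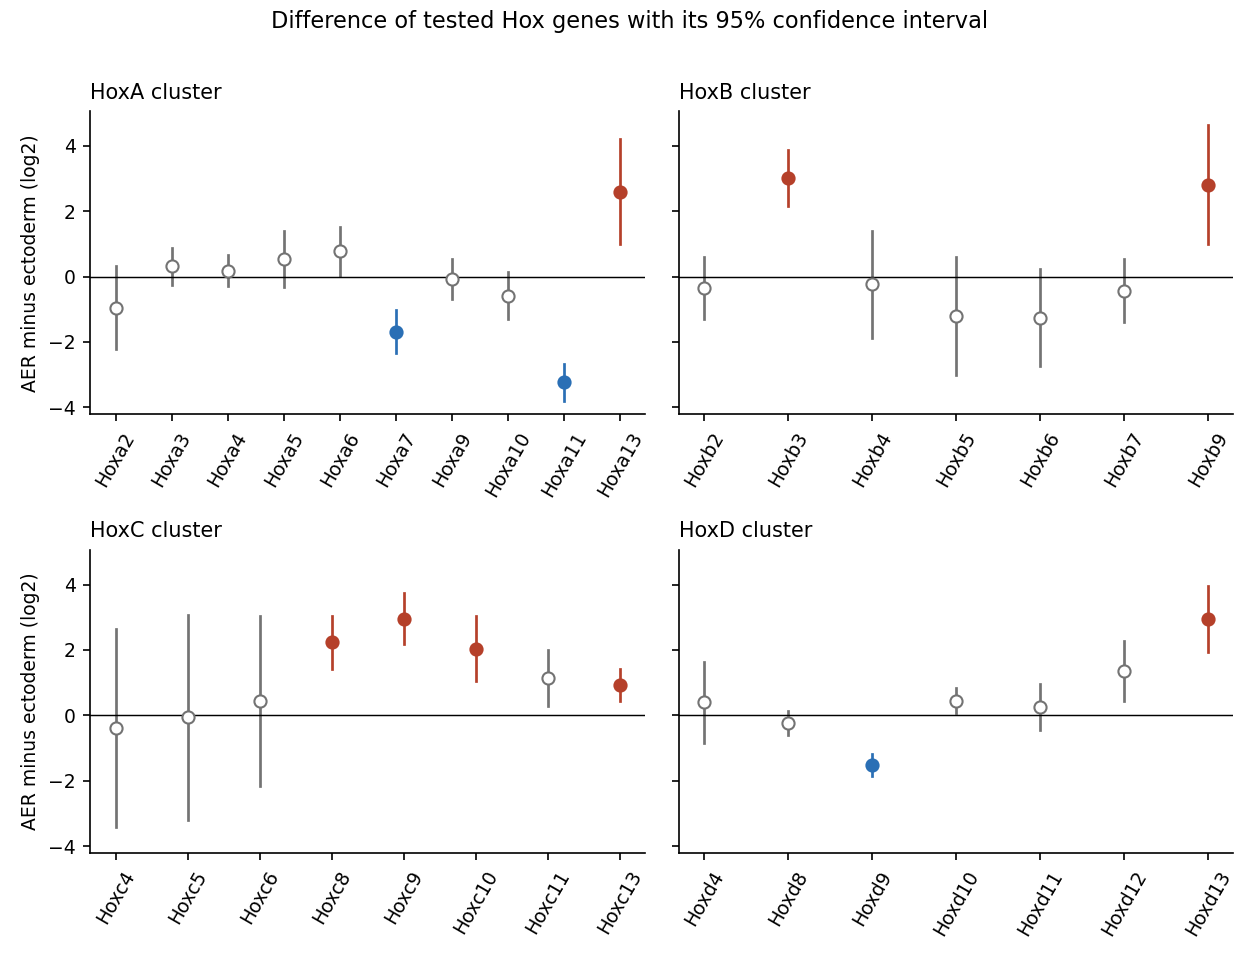
Points give the log2 difference, AER minus ectoderm, of 32 of the 33 tested Hox genes along their cluster, with the 95% confidence interval as a line, red where a gene rose, blue where it fell and open where it did not pass the test. In HoxD the values run from -1.52 at Hoxd9 to 2.96 at Hoxd13, and in HoxA Hoxa11 at -3.23 stands beside Hoxa13 at 2.60. The red Hoxc13 turns to -0.88 when arrays are centred on pan-epithelial markers, and the blue Hoxa7 and Hoxd9 turn to 0.70 and 0.86 when they are centred on limb mesenchyme markers.

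Hoxd13, the 5′-most HoxD gene and a regulator of digit formation, read 6289, 3598 and 4430 on AER arrays, against 623, 417, 1398 and 355 on ectoderm arrays. The lowest AER array was above the highest ectoderm array, which was replicate 3. The gene was 7.76-fold higher in AER (95% CI 3.84 to 15.7; adjusted p = 0.00242, limma), and its log2 difference was 3.36 without ectoderm replicate 3. Its probe covers chromosome 2 from 74509248 to 74509307 on the plus strand (mm9).

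Hoxa13, the corresponding gene of HoxA, which is needed for the autopod, read 1034, 667 and 660 on AER arrays, against 92.6, 86.0, 582 and 56.6 on ectoderm arrays. Ectoderm replicate 3 was again the high ectoderm array and came close to the AER arrays. The fitted difference was 6.05-fold higher in AER (95% CI 1.99 to 18.3; adjusted p = 0.0392, limma), and without ectoderm replicate 3 it was 3.33 on the log2 scale with adjusted p = 0.000121. Without any 1 of the other 6 arrays the call was lost, with adjusted p of 0.0793 to 0.104 and log2 differences of 2.21 to 2.71, and it was lost without ectoderm replicates 2 and 4 together (1.73; adjusted p = 0.240), with both averaged (0.0924) and with no filter on dim probes (0.0851). A second probe, further 3′, read 83.7, 86.6 and 111 in AER, against 7.83, 7.42, 41.2 and 8.73 in ectoderm, with a log2 difference of 2.95 (adjusted p = 0.00762 in the fit over probes).

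Towards the 3′ side of Hoxd13 the differences were smaller. Hoxd12, another digit-phase HoxD gene, read 3515, 2656 and 3171 in AER, against 1702, 776, 2275 and 707 in ectoderm. The groups did not overlap, and the log2 difference of 1.36 had adjusted p = 0.0558, which became 0.0135 without ectoderm replicate 3 and 0.212 without replicates 2 and 4. It passed in 8 of the 24 alternatives, among them the slide row as a block (1.64; adjusted p = 0.0365), the replicate block (1.10; 0.0410) and quantile normalization (1.51; 0.0366). Hoxd11, a forearm gene, overlapped between the groups at 581, 468 and 431 in AER and 556, 276, 618 and 298 in ectoderm (log2 difference 0.26; adjusted p = 0.610). Hoxd10 read 453 to 523 in AER and 300.1 to 420 in ectoderm, without overlap, at 0.45 (adjusted p = 0.113). It passed under normexp background correction (0.64; 0.0371), with the authors' values (0.69; 0.0289) and under mesenchyme centring, and turned to -1.34 under pan-epithelial centring. None of these 3 genes passed the test in the main setting.

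At Hoxd9 the direction was the opposite. Hoxd9, a gene of the proximal limb, read 140, 126 and 160 on AER arrays, against 369, 431, 399 and 425 on ectoderm arrays, and was lower by 2.87-fold (95% CI 2.27 to 3.63; adjusted p = 0.000251, limma), which turned to a log2 difference of 0.86 when arrays were centred on limb mesenchyme markers. Both groups were tight, and ectoderm replicate 3 did not stand out here. Hoxd8, the next gene, read 127 to 176 in AER and 175 to 196 in ectoderm (-0.23; adjusted p = 0.371). Hoxd4 was weak, at 6.67, 42.0 and 23.8 in AER and 10.1 to 16.6 in ectoderm (0.40; adjusted p = 0.648).

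In HoxA the step lay between neighbours. Hoxa11, which specifies the forearm, read 183, 200.2 and 179 on AER arrays, against 2101, 1553, 2444 and 1179 on ectoderm arrays. The AER values were nearly equal, and the ectoderm arrays all lay far above them. In AER Hoxa11 was lower by 9.36-fold (95% CI 6.32 to 13.9; adjusted p = 7.03e-05, limma), a direction and call kept under all 24 alternatives that were run. Hoxa10, an upper-limb gene, read 830, 507 and 1064 in AER and 1388, 851, 1608 and 908 in ectoderm, and did not pass (-0.58; adjusted p = 0.246). Hoxa9 gave values that overlapped for both of its probes, with log2 differences of -0.07 and -0.12.

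The promoters of Hoxa13 and Hoxd13, which rose, and of Hoxa11 and Hoxd9, which fell in the same clusters, are shown. Their part in the differences was not tested. The 4 genes were chosen after their values were seen, and Hoxa7, which also fell, and the other 6 genes that rose are not shown. Each covers 250 bases before to 50 bases after the gene's start, from RefSeq on GRCm38.p6, written 5′ to 3′ on the gene's strand. Capitals mark 4 motifs on either strand, which may overlap. They are CCAAT for the CCAAT box, TATAAA for the TATA box and GGGCGG for the GC box of general promoters, and TGATTNAT for joint binding of PBX and HOX proteins. Hoxa13 lies at chr6:52260831-52261130 (minus strand), Hoxd13 at chr2:74667975-74668274 (plus), Hoxa11 at chr6:52245761-52246060 (minus) and Hoxd9 at chr2:74697513-74697812 (plus).
Hoxa13: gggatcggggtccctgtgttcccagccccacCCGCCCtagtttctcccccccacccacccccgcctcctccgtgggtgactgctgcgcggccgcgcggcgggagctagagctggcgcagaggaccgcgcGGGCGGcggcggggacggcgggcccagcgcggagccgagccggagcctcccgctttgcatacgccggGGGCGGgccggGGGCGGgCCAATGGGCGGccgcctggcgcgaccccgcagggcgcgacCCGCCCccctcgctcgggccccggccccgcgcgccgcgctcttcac
Hoxd13: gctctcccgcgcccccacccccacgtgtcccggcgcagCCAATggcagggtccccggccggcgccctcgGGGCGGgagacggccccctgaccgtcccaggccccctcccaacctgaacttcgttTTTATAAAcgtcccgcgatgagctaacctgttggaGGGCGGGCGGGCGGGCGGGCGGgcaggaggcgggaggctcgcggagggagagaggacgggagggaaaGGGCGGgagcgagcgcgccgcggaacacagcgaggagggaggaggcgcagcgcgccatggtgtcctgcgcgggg
Hoxa11: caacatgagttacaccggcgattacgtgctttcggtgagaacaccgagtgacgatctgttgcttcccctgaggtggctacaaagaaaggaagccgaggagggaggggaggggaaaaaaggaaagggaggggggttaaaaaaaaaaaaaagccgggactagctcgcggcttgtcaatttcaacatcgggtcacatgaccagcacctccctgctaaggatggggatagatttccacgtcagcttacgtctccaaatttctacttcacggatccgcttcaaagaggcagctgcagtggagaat
Hoxd9: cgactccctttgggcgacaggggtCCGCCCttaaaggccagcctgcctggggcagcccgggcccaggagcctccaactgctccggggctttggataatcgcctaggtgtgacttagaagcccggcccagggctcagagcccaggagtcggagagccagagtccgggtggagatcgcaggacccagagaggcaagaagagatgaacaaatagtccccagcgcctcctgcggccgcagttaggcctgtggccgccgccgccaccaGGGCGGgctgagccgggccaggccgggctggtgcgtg
G and C made up 81.0% of the Hoxa13 window and 74.3% of the Hoxd13 window, and 51.0% of the Hoxa11 window and 68.3% of the Hoxd9 window, against a median of 52.7% over 32851 mouse promoters. Hoxd9 thus lay nearer to Hoxd13 than to Hoxa11 in base content. GGGCGG occurred 6 times for Hoxa13, 7 times for Hoxd13, 0 times for Hoxa11 and 2 times for Hoxd9, and it is present in 35.7% of all promoters. CCAAT occurred once each for Hoxa13 and Hoxd13 and is present in 37.4% of all promoters. TATAAA was found 2 times for Hoxd13, once on each strand with the matches overlapping, and is present in 13.6% of all promoters. TGATTNAT was in none of the 4 windows and is in 3.2% of all promoters. Among the 24 promoters listed for 22 of the Hox genes, 15 held CCAAT, 10 GGGCGG, 4 TATAAA and 2 TGATTNAT. A match describes these letters and is not a bound site, and factor binding was not measured.

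The plot of the group 13 genes beside their neighbours shows that the ectoderm arrays were not alike for them. Ectoderm replicate 3 was the highest ectoderm array for 12 of the 14 tested genes of groups 9 to 13 and for 4 of the 19 of groups 1 to 8. It was the highest for Hoxa11 too, a gene that was lower in AER, and for Fgf8. How often ectoderm replicate 3 was the highest ectoderm array over all genes was not counted. The part of this array's ridge transcripts in the Hox values was not tested.

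**Figure D3:**
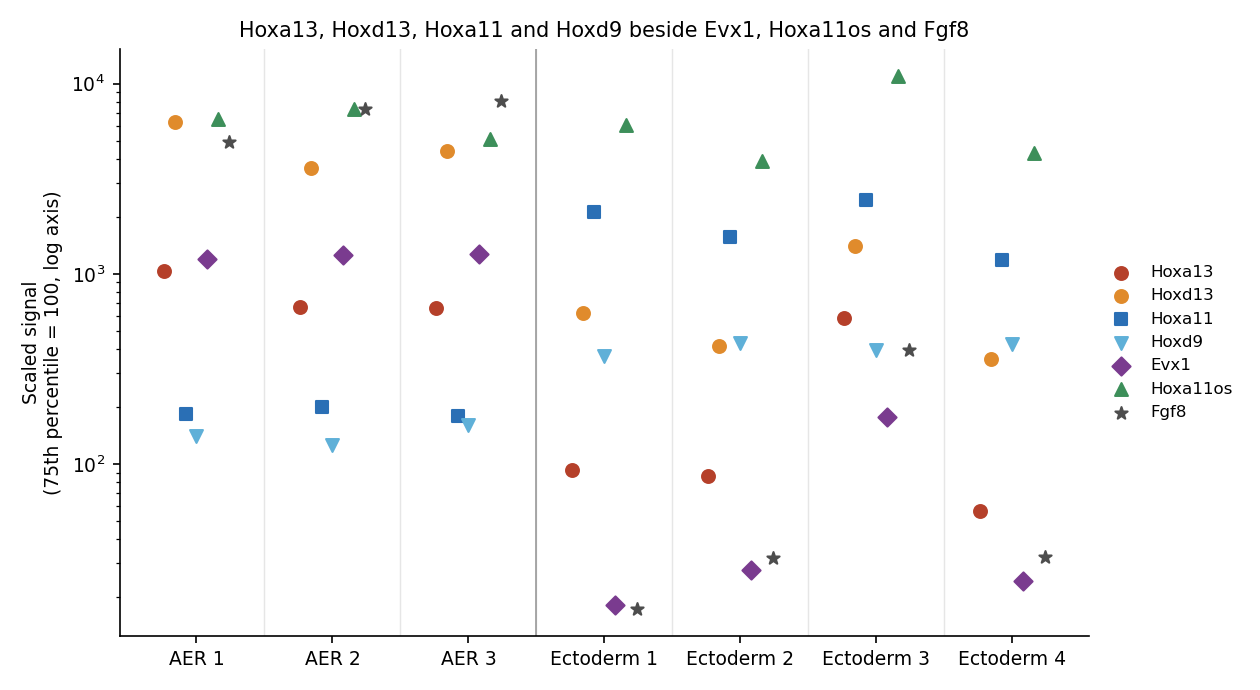
Points give the scaled signal (75th percentile of the array = 100, log axis) of 4 Hox genes, of Evx1 and Hoxa11os, which are encoded beside HoxA genes, and of the ridge gene Fgf8 on each array. Ectoderm 3 is the highest ectoderm array for Hoxa13 (582), Hoxd13 (1398), Evx1 (176) and Fgf8 (397), while Hoxd9 lies between 369 and 431 on all 4 ectoderm arrays.

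Of the 8 tested HoxC genes 4 rose, against 7.08% of all genes, and these 4 lie on the 5′ side of Hoxc6. Among them, Hoxc8 and Hoxc10 met the filter only with their AER arrays. These genes are mostly known for the trunk, the hindlimb and, for Hoxc13, the hair and nail. Hoxc9 read 458, 477 and 389 on AER arrays, against 35.7, 48.3, 110.4 and 54.0 on ectoderm arrays, with a wide gap between the groups. It was 7.76-fold higher in AER (95% CI 4.52 to 13.3; adjusted p = 0.000594, limma), and the call held in all 24 alternatives run, with a log2 difference of 2.27 under normexp and with the authors' values, against 2.96 here. Hoxc8 read 14.2, 28.0 and 28.0 in AER, where all 3 arrays were above background, and 2.79, 4.42, 6.93 and 5.89 in ectoderm, where none was. With the ectoderm arrays at their bound, it rose at least 3.87-fold in AER (adjusted p = 0.00336). That bound holds for this background setting: the log2 difference of 2.24 was 1.03 under normexp and 1.06 with the authors' values (adjusted p = 0.00453 and 0.00415). Within slide rows 1 and 2 the adjusted p was 0.118 and 0.0598, and the gene passed the filter through AER alone.

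Hoxc10, a gene of the lumbar trunk and hindlimb, read 34.2, 26.3 and 26.4 in AER, against 6.54, 3.51, 16.2 and 6.38 in ectoderm, where replicate 3 alone was above background. It was 4.12-fold higher (95% CI 2.06 to 8.23; adjusted p = 0.0145). The call was lost without AER replicate 1 (log2 difference 1.92; adjusted p = 0.0518), without ectoderm replicates 2 and 4 (1.48; 0.0732) and with normexp background correction, where the difference was 0.59 (adjusted p = 0.106). With the authors' values it was 0.65 (0.0280). Hoxc11 read 65.8, 46.7 and 57.3 in AER and 26.1, 13.4, 49.0 and 24.5 in ectoderm. The groups overlapped through ectoderm replicate 3, and the difference of 1.14 did not pass (adjusted p = 0.0805), but had adjusted p = 0.0117 without that array.

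Hoxc13, which controls hair and nail keratins, read 94.9, 86.6 and 124 in AER, against 58.1, 43.0, 69.4 and 46.3 in ectoderm. The groups did not overlap, and the gene was 1.89-fold higher (95% CI 1.35 to 2.65; adjusted p = 0.0215, limma), with -0.88 on the log2 scale under pan-epithelial centring. The call was lost without AER replicate 3 (adjusted p = 0.0644), ectoderm replicate 2 (0.0610) or ectoderm replicate 4 (0.0679), without the last 2 together (0.207), under normexp (0.0780) and with the authors' values (0.0691). Hoxc12, between Hoxc11 and Hoxc13, was not well above background on any array.

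HoxB gave 2 genes that rose. Hoxb9, a trunk and limb-position gene, read 38.4, 37.3 and 73.8 in AER, against 5.05, 21.5, 1.49 and 12.6 in ectoderm, with replicates 2 and 4 the only ectoderm arrays above background. It was 7.03-fold higher (95% CI 1.98 to 24.9; adjusted p = 0.0472, limma). Leaving out AER replicate 1, 2 or 3 gave adjusted p of 0.0868, 0.101 and 0.130, and leaving out ectoderm replicate 1 or 4 gave 0.0984 and 0.0575, while quantile normalization gave 0.0693 and the slide row as a block 0.121. Array weights gave 0.0782 and no filter on dim probes 0.1003. The log2 difference of 2.81 was 1.22 under normexp and 1.29 with the authors' values (adjusted p = 0.00586 and 0.0174), and 4.11 without replicates 2 and 4 together (0.00497).

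Hoxb3, best known in the hindbrain and pharyngeal arches, rested on 2 probes that disagreed. The first read 334, 263 and 224 on AER arrays, against 15.8, 44.0, 35.4 and 49.1 on ectoderm arrays, 8.14-fold higher in AER (95% CI 4.51 to 14.7; adjusted p = 0.000861, limma). The second, further 3′ at chromosome 11 from 96209002 to 96209061 (mm9), was above background on no AER array and on ectoderm replicates 2 and 4 alone, at 40.6 and 32.9. The arrays high on the second probe were thus not the arrays high on the first, and the second did not pass the filter. The direction for Hoxb3 therefore holds for 1 probe.

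The sequences of 2 probes that lie in the best-known parts of HOX proteins are shown, to make plain what these arrays read. The Hoxc11 probe encodes the WFQN stretch of the homeodomain, the part of the protein that is most alike among HOX factors. The Hoxa6 probe encodes the YPWM stretch through which HOX factors meet PBX. Capitals mark the codons of WFQN in the first and of YPWM in the second, and the sequences are those in the array files.
Hoxc11: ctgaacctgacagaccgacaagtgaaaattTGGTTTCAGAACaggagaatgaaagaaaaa
Hoxa6: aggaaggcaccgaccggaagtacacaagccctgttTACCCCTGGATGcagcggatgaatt
Hoxc11 lies at chromosome 15 from 102787022 to 102787081 and Hoxa6 at chromosome 6 from 52158194 to 52158253 (mm9).

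Other genes of HoxA went their own ways. Hoxa7, a trunk gene, read 100.4, 216 and 222 on AER arrays, against 492, 619, 483 and 584 on ectoderm arrays. The groups did not overlap, and AER replicate 1 was the lowest array. In AER it was lower by 3.20-fold (95% CI 2.05 to 5.02; adjusted p = 0.00439, limma), a difference that had adjusted p = 0.0571 without ectoderm replicates 2 and 4 and turned to 0.70 on the log2 scale under limb mesenchyme centring. Hoxa6 read 34.5, 36.1 and 34.6 in AER, against 27.8, 14.8, 33.1 and 13.2 in ectoderm, without overlap, and did not pass (0.77; adjusted p = 0.151). Hoxa5 was highest on AER replicate 2, at 77.0, with 26.5 and 28.0 on the other AER arrays and 19.5 to 33.7 in ectoderm (0.54; adjusted p = 0.365).

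Towards the 3′ end of HoxA, Hoxa2, Hoxa3 and Hoxa4 did not pass the test. Hoxa2, a regulator of the second pharyngeal arch, was close to background, at 3.77, 15.3 and 2.85 in AER and 7.18 to 15.5 in ectoderm (-0.95; adjusted p = 0.288). Hoxa3 read 77.1, 159 and 108 in AER and 73.2 to 99.6 in ectoderm (0.32; adjusted p = 0.411). Hoxa4 read 7.23 to 10.1 in AER and 6.10 to 10.3 in ectoderm (0.19; adjusted p = 0.580).

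Among the tested Hox genes the ectoderm arrays spread most for Hoxc5, Hoxc4 and Hoxc6, with log2 ranges of 5.30, 5.13 and 4.75, ahead of the 5′ genes Hoxb9 (3.85) and Hoxa13 (3.36). Hoxc4 read 53.4, 120.1 and 80.5 on AER arrays, against 17.2, 602, 20.3 and 589 on ectoderm arrays. Replicates 2 and 4 stood above the AER arrays and replicates 1 and 3 below them. Hoxc5 read 23.7, 58.7 and 37.3 in AER, against 7.14, 233, 5.92 and 229.6 in ectoderm, and Hoxc6 362, 507 and 584 in AER, against 57.9, 1557, 111 and 1504 in ectoderm. In all 3 genes the AER range lay inside the gap between the ectoderm arrays. By SD over the ectoderm arrays, Hoxc5, Hoxc4 and Hoxc6 ranked 4, 6 and 14 of 20823 genes.

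With all 7 arrays none of the 3 passed the test, at -0.39 for Hoxc4, -0.06 for Hoxc5 and 0.44 for Hoxc6 (adjusted p = 0.866, 0.984 and 0.826, limma). The confidence intervals on the log2 scale were -3.43 to 2.64 for Hoxc4, -3.19 to 3.08 for Hoxc5 and -2.16 to 3.04 for Hoxc6. Intervals this wide do not show equal levels. Without ectoderm replicates 2 and 4 the log2 differences were 2.10, 2.52 and 2.56 (adjusted p = 0.0131, 0.00857 and 0.00579), with 3 AER and 2 ectoderm arrays. That setting leaves out the arrays with the high values, so it describes the other 2 ectoderm arrays and is not a second test.

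HoxB genes followed the same order of arrays. All 7 tested HoxB genes had ectoderm replicates 2 and 4 above replicates 1 and 3, as did 3 of 8 HoxC, 4 of 11 HoxA and 1 of 7 HoxD genes. Hoxb4 read 37.4, 43.5 and 43.9 in AER, against 21.3, 136, 17.5 and 112 in ectoderm. Hoxb5 read 9.03, 7.46 and 6.18 in AER, against 8.29, 46.4, 4.78 and 47.8 in ectoderm, and Hoxb6 17.0, 7.35 and 9.13 in AER, against 11.7, 54.4, 11.1 and 55.6 in ectoderm. In each of them replicates 2 and 4 stood above the AER arrays and the other ectoderm arrays. Hoxb2 read 65.0, 76.3 and 135 in AER, against 73.8, 196, 68.2 and 154 in ectoderm, and Hoxb7 35.0, 22.9 and 29.1 in AER, against 27.8, 66.8, 19.8 and 60.6 in ectoderm. None of these 5 genes passed the test between AER and ectoderm. For Hoxb2, Hoxb4, Hoxb5, Hoxb6 and Hoxb7 the log2 differences were -0.345, -0.238, -1.205, -1.258 and -0.435 (adjusted p = 0.611, 0.850, 0.332, 0.231 and 0.516, limma).

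Groups 9 to 13 had the opposite order. Replicates 2 and 4 were both below replicates 1 and 3 for 11 of these 14 genes and above them for 2, whereas they were above for 13 and below for 2 of the 19 tested genes of groups 1 to 8. Over all genes tested, both arrays lay above the others for 19.1% and below for 25.1%. Both were at least 4-fold above the other ectoderm arrays for 30 of 20823 genes (0.144%), and 6 of the 33 Hox genes (18.2%) were among the 30. The median SD over ectoderm arrays was 0.66 for the tested Hox genes and 0.19 for all genes, against 0.29 and 0.31 over AER arrays (log2).

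**Figure D4:**
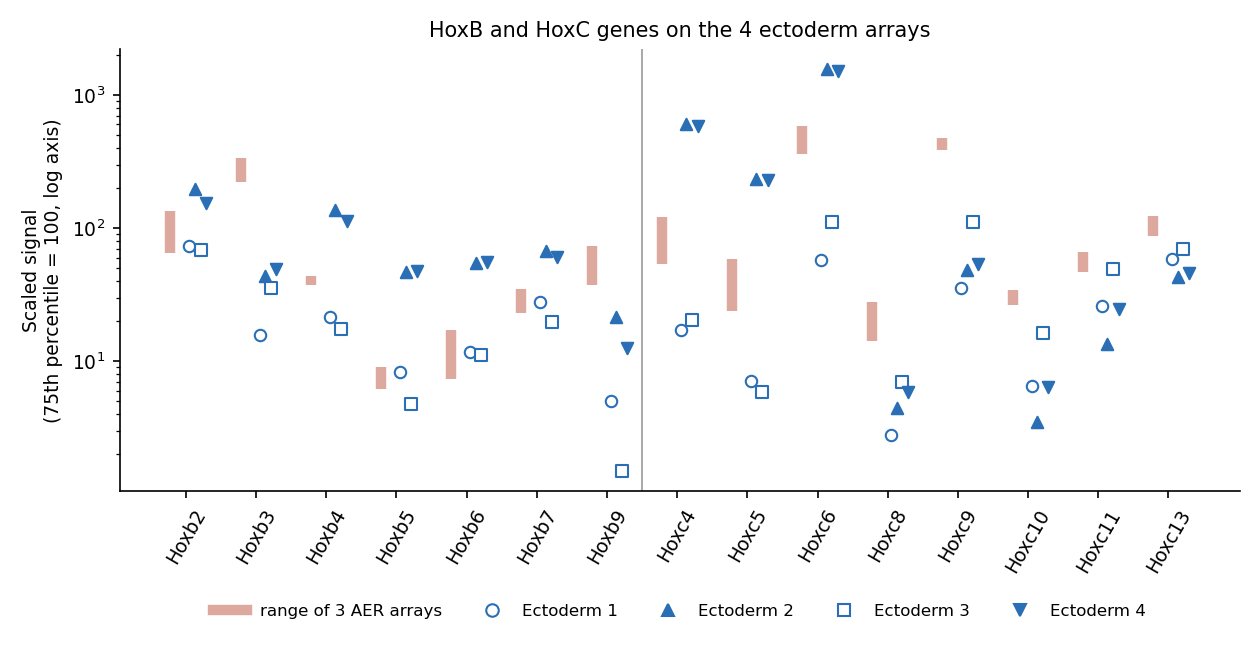
Points give the scaled signal (75th percentile of the array = 100, log axis) of the tested HoxB and HoxC genes on the 4 ectoderm arrays, filled for replicates 2 and 4, with the range of the 3 AER arrays as a bar. For Hoxc4 the filled points lie at 589 and 602 and the open ones at 17.2 and 20.3, with the AER bar from 53.4 to 120.1 between them, and for Hoxc9 to Hoxc13 the filled points no longer lie on top.

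The order was not particular to position genes. Mup9, a major urinary protein gene of a family of near-identical copies, read 26.8, 27.8 and 25.5 in AER, against 1.76, 53.8, 1.61 and 53.5 in ectoderm. Ly6c1, a surface protein gene of blood and vessel cells, read 19.9, 11.6 and 17.8 in AER, against 31.0, 399, 42.8 and 452 in ectoderm. A few position genes of other families are given beside them, and all of these were chosen after their values were seen. Pax1, a gene of the pectoral girdle and the sclerotome, read 6.76, 3.34 and 1.17 in AER, against 13.7, 411, 1.73 and 369.6 in ectoderm, and Irx3, an early proximal and anterior limb gene, 19.7, 51.5 and 64.2 in AER, against 22.5, 436, 36.3 and 516 in ectoderm. Pax1 and Irx3 too were high on ectoderm replicates 2 and 4. Tbx5, the forelimb identity gene, read 1160 to 1382 in AER, against 3805, 3718, 2695 and 4071 in ectoderm, so replicate 1 lay above replicate 2. Tbx4, the hindlimb gene, read 34.5 to 47.2 in AER and 80.4 to 103.5 in ectoderm, and Pitx1, another hindlimb gene, 39.7 to 124.5 in AER and 19.4 to 54.4 in ectoderm.

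The dim genes can be given briefly. Hoxb1, Hoxb13 and Hoxc12 were not well above background on any array. Hoxb8 was above background on AER replicate 3 alone, at 12.7, and Hoxd1 on ectoderm replicate 2 alone, at 34.7. Hoxd3 was above background on none, with its highest value of 4.37 on ectoderm replicate 2.

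Other transcripts made within the clusters were looked for by name. Of 18 listed, most had no probe under that name, Evx2 and Hoxd3os1 did not pass the filter, and 3 were tested. Evx1, a homeobox gene next to Hoxa13 that is known from the AER, read 1194, 1259 and 1271 on AER arrays, against 18.1, 27.7, 176 and 24.2 on ectoderm arrays. It was 32.5-fold higher in AER (adjusted p = 0.00148, limma), with ectoderm replicate 3 the high ectoderm array, as for Hoxa13. Evx2, its counterpart beside Hoxd13, was not well above background on any array. Hoxa11os, the antisense transcript of the Hoxa11 locus, on the plus strand of chromosome 6 from 52199709 to 52199768 (mm9), read 6552, 7338 and 5128 in AER, against 6081, 3917, 10990 and 4310 in ectoderm. It did not pass (log2 difference 0.11; adjusted p = 0.851), while Hoxa11 on the other strand was 9.36-fold lower. Hotair, the noncoding transcript between Hoxc11 and Hoxc12, had 5 probes, of which 1 passed the filter, at 25.4, 14.5 and 19.2 in AER and 26.6, 22.1, 33.9 and 21.3 in ectoderm (-0.41; adjusted p = 0.286). Hoxd3os1 was above background on 2 ectoderm arrays and did not pass the filter.

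HOX cofactors were lower or did not pass. Of 9 tested, 0 rose and 3 fell, against 7.08% and 8.45% of all genes, with a median log2 difference of -0.27. Pknox2, of the MEIS-related group, was lower at -4.30 (adjusted p = 2.20e-05), Pbx3 at -1.08 (adjusted p = 0.00369) and Pbx4 at -0.82 (adjusted p = 0.0192). Among those that did not pass were Pbx2 at -0.27, Meis1 at 0.10, Meis2 at -0.64, Meis3 at 0.26 and Pknox1 at 0.00, with adjusted p of 0.186 or more. Meis2, which had the smallest of these p values, marks the proximal limb.

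Genes that flank the clusters had 2 of 12 tested members higher and 0 lower, Hibadh beside HoxA at 0.84 (adjusted p = 0.00801) and Lnpk beside HoxD at 0.72 (adjusted p = 0.0344), with a median of -0.03. This share is near the 15.5% of all genes that passed in either direction. Of 24 tested Polycomb and Trithorax regulators, which hold Hox clusters silent or active, 1 rose and 2 fell, with a median of 0.02, which is also near that share. Ezh1, a Polycomb methyltransferase, was higher at 0.78 (adjusted p = 0.0357), and Cbx2 and Cbx8, Polycomb readers, were lower at -0.57 and -1.42 (adjusted p = 0.0224 and 0.0235). Of 6 genes linked to HOX13 factors in the limb, 1 rose and 3 fell, against 7.08% and 8.45% of all genes. Bmp7, a growth factor, was higher at 0.53 (adjusted p = 0.0400), and the ephrin receptor gene Epha7, the retinoic acid synthesis gene Aldh1a2 and the lipid enzyme gene Enpp2 were lower at -1.44, -1.93 and -2.12 (adjusted p = 0.00218, 0.00743 and 0.00200). The other 2 did not pass. These lists were chosen with earlier results of these data known.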

How the data were processed

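Clustered Hox genes were compared between 3 AER arrays and 4 ectoderm arrays, which each held a pool. The deposited scanner files give the processed signal as an intensity, background-subtracted with Agilent Feature Extraction 10.7.3.1, and other columns with a flag per spot for background, saturation and outliers, per the file headers. The authors' deposited matrix is on a log2 scale, and limma is named without a version, per the submitters' processing notes. Normexp (offset 50) with quantile normalization gave its values to within 0.000108.

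From the deposited scanner files, control and outlier-flagged spots were left out, the array's 75th percentile was subtracted from the log2 processed signal, and spots of a probe were averaged. Scaled signal is 100 times the ratio to that percentile. Probes well above background on at least 3 of 7 arrays were kept (28276 of 55681), and a gene was represented by its probe of highest mean. Groups were compared with limma 3.58.1 (lmFit, eBayes, two-sided) in R 4.3.3, with Benjamini-Hochberg adjustment over 20823 genes and 0.05 as the threshold. Residual degrees of freedom came to 5, with 3.54 more from the prior. The script was tested on simulated data. A fold is "at least" for a gene whose lower group had no array above background, with those arrays set to the higher of their own value and the dimmest signal called above background. The 75th percentile of the processed signal was 395 to 662 in AER and 296 to 520 in ectoderm, and 48.7% to 55.2% of AER spots and 48.9% to 51.1% of ectoderm spots were above background, and 0 were saturated. The number of arrays limits the precision. Probe positions are on mm9, and 26300 probes took the name of their RefSeq accession.

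The members and lists were chosen with earlier results of these data known. Hox genes are named, with the cofactors and other cluster transcripts that were tested, and up to 4 members of each other list; a few items that this takes are counted but not reported here. Deviations of AER and ectoderm arrays with the same replicate number in the titles correlated at -0.03, 0.19 and 0.13. Those of differently numbered AER and ectoderm arrays correlated at -0.26 to 0.18. AER and ectoderm replicate 3 were the arrays low in the Y-linked Eif2s3y and Ddx3y. With so few arrays these values do not settle whether the title numbers pair the arrays, and the main fit used no pairing. Alternatives covered background correction, normalization, the authors' values, the filter, probe choice, slide row, replicate numbers, single arrays, array weights and centring on marker lists. Python 3.11.15, pandas 2.3.3, numpy 2.4.6 and matplotlib 3.10.9 were used.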

Additional observations from a re-analysis of the deposited data

Results flagged for a closer look

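With 4 ectoderm arrays, each of the 43 Hox probes was checked for a single array far from the others. The measure was the gap to the nearest array over the whole range on the log2 scale, against Dixon's 95% critical value. Chance would be expected to give about 1 such group in 20, and 2 probes were found. The second Hoxa13 probe had ectoderm replicate 3 as its high array, with a ratio of 0.905 and values of 7.83, 7.42, 41.2 and 8.73 scaled units on replicates 1 to 4. Hoxd1 had ectoderm replicate 2 as its high array, with a ratio of 0.945, at 34.7 against 1.28, 1.54 and 1.36 on the others, none of which was well above background.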

How the results depend on the processing

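Hoxa11, Hoxc9 and Hoxd13 kept their direction and their side of the threshold under all 24 alternatives. Of 8 higher and 3 lower Hox genes, the higher count was 5 with no filter on dim probes, and within slide rows 1 and 2 it was 3 and 2 (382 and 381 of all genes higher, 539 and 597 lower; 3 and 2 Hox probes higher), where the lone array of a group was assumed to vary like the others. Leaving out 1 array gave 5 to 10 Hox genes higher and 3 to 4 lower (6 to 11 and 3 to 4 probes), and 1000 to 1383 genes higher and 1168 to 1897 lower in all. The count of 5 came without AER replicate 3 or ectoderm replicate 4, and 1168 without ectoderm replicate 4. The replicate block, with the number in the titles as a block, gave 9 higher and 3 lower. Whether the title numbers pair the arrays is not known. Without ectoderm replicates 2 and 4, chosen after seeing the data, 9 Hox genes were higher and 2 lower (754 and 804 of all genes), and Hoxb4, Hoxc4 and Hoxc5 turned to 1.10, 2.10 and 2.52. The median of all genes moved to -1.87 when arrays were centred on pan-epithelial markers and to 2.30 on limb mesenchyme markers. Epithelial centring left 3 Hox genes higher (Hoxb3, Hoxc9 and Hoxd13) and 22 lower (4 and 23 probes; 181 and 19897 of all genes), and turned Hoxa3 to -1.48, Hoxa4 to -1.61, Hoxa5 to -1.26, Hoxa6 to -1.02, Hoxc13 to -0.88, Hoxd4 to -1.39, Hoxd10 to -1.34 and Hoxd11 to -1.54. Mesenchyme centring left 32 higher and 1 lower, Hoxa11 (34 and 1 probes; 20155 and 250 of all genes), and turned Hoxa2 to 1.43, Hoxa7 to 0.70, Hoxa9 to 2.31, Hoxa10 to 1.80, Hoxb2 to 2.03, Hoxb4 to 2.14, Hoxb5 to 1.17, Hoxb6 to 1.12, Hoxb7 to 1.94, Hoxc4 to 1.98, Hoxc5 to 2.32, Hoxd8 to 2.15 and Hoxd9 to 0.86. Both centrings move every difference by 1 amount by construction. The share of calls that were higher was 45.6%, and 57.4% with the percentile taken over probes detected on every array. With the authors' values 9 Hox genes were higher and 3 lower. For the other changes the cause was not tested.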
